A study of Mus musculus with 8 samples.

Results

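The genes described here encode the nuclear subunits of the mitochondrial respiratory chain and of ATP synthase. They were taken by name from the array's own gene names: every name starting with Nduf, Sdha, Sdhb, Sdhc, Sdhd, Uqcr, Cox4i, Cox5, Cox6, Cox7, Cox8 or Atp5. The rule used no measured value and found 95 of the 34834 gene names on the array, with 138 probes. Of these, 43 were placed in complex I, 6 in complex II, 8 in complex III, 20 in complex IV and 18 in complex V. The prefixes also catch genes that are not subunits: 10 assembly factors, such as Ndufaf5 and Sdhaf1, and 4 genes that share only the name or belong to no complex (Ndufa4l2, Atp5s, Atp5sl and the pseudogene Atp5c1-ps). Ndufa4 and Ndufa4l2 carry the complex I name but were placed in complex IV, where the Ndufa4 protein sits.

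The cells were B16, a mouse melanoma line, grown in high-glucose medium with fetal bovine serum in every group. A control labelled 0 h was compared with cells given SEMA3E, a secreted semaphorin that binds plexin D1, for 2 h or 8 h, and with cells given cytochalasin D, which blocks actin filament growth, for 8 h. Each group had 2 arrays, described in the labels as biological replicates, and 1 cell line stands behind all of them. The control has no 2 h or 8 h counterpart, so treatment and time in culture cannot be told apart in any comparison with it. Only cytochalasin D and SEMA3E at 8 h were matched in time.

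Oxidative phosphorylation moves electrons from NADH and succinate to oxygen through complexes I to IV, pumps protons across the inner mitochondrial membrane, and lets them flow back through complex V to make ATP. Most subunits are encoded in the nucleus and imported, and a small set of core subunits is encoded by mitochondrial DNA. Complexes I, III, IV and V draw on both genomes, whereas complex II is entirely nuclear. In melanoma cells the pathway works beside a high rate of glycolysis, and high glucose lowers the need for it.

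All levels below are log2 of the processed signal minus the array's 75th percentile over the 18687 probes that were above background on all 8 arrays, so 0 is that percentile and a difference of 1 is 2-fold. Differences are means of 2 arrays minus means of 2 arrays, given with limma's moderated standard error (SE). A call needed a Benjamini-Hochberg adjusted p under 0.05 over 18073 tested genes. A level of 1 gene is not compared with that of another, because probes differ in brightness. All 8 melanocyte markers checked, among them Mitf, Dct, Tyr and Tyrp1, were above background on every array. Of markers of other cell types, 3 of 6 for fibroblasts (Lum, Pdgfra and Thy1), 2 of 6 for macrophages, 2 of 5 for endothelium, 2 of 5 for T cells and 3 of 6 for striated muscle were above background on no array, while 2, 3, 3, 2 and 1 of them, in that order, were above it on all 8. Overall brightness differed between arrays: before scaling, the upper quartile of spot signal ran from 59.3 on a SEMA3E 2 h array to 154 on a SEMA3E 8 h array, and both SEMA3E 2 h arrays were the dimmest. SEMA3E 2 h replicate 2 also had a dark patch: 30 of its 288 blocks of neighbouring spots lay more than 0.5 below the array's median deviation, down to -2.23, and 6 at the edge lay more than 0.5 above, up to 0.998, while the other 7 arrays had 0 such blocks.

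**Figure D1:**
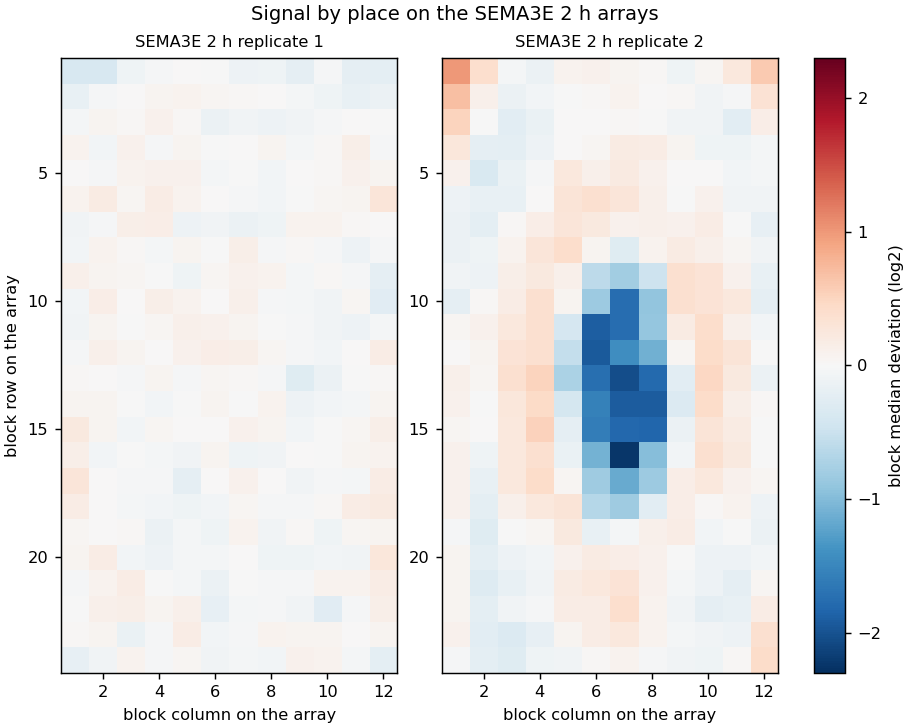
Median deviation of the spots in each of 288 blocks (24 rows by 12 columns of blocks; colour, log2) on both SEMA3E 2 h arrays. Replicate 1 is even, and replicate 2 has a dark patch near its centre that reaches -2.23.

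The probes used for 12 of the tested genes had at least 1 spot in these blocks, 9 of them in the low ones: Cox4i2, Cox7c, Cox8a, Uqcrb, Ndufa2, Ndufa5, Ndufb11, Ndufc2 and Atp5a1. Sdhc, Atp5e and Atp5g2 had a spot in a high block. In the low blocks the replicates differed by a median of -1.66, and for the 78 tested genes outside all such blocks by 0.14. Without those spots 85 genes could be tested; Cox4i2, Cox8a, Ndufa2, Atp5e and Atp5g2 could not, so their SEMA3E 2 h values rest on spots in these blocks.

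Of the 95 genes, 90 were tested and 87 were above background on all 8 arrays. Cox7b2, Cox8b and Ndufa4l2 were above background on no array, and Cox8c on 1 array (SEMA3E 8 h replicate 2). Ndufb7, an accessory subunit of complex I, read 2.37 to 2.88 on 7 arrays but was not tested because its spot was marked as an outlier on control replicate 2. The test thus covered 73 of the 74 widely expressed subunits.

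No gene of the set passed the test in any of the 5 comparisons. Across all genes, limma called 0% in the SEMA3E 2 h comparison with control, 0.00553% (1 gene) in that of SEMA3E 8 h and 0% in that of cytochalasin D. It called 0.00553% (1 gene) between the pair of 8 h treatments and 0% between the SEMA3E times. The smallest adjusted p of any member, by limma with Benjamini-Hochberg adjustment, was 0.496, 0.706, 1.0, 0.413 and 0.406 in that order. The values that follow therefore describe these arrays, and no single gene is called changed.

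As a group, the respiratory genes were highest on the SEMA3E 2 h arrays. At SEMA3E 2 h, 73 of 90 lay above control, beside 54.9% of all genes tested. The median difference was 0.44 against 0.06 over all genes tested. At an unadjusted p under 0.05, 14 members were higher and 0 lower, beside 5.58% and 3.9% of all genes. The excess of the median over that of all genes, 0.38, depended on the processing: it was 0.20 with quantile normalization, 0.03 with normexp background correction and -0.03 with no filter on background, and the members' own median was -0.16 when arrays were scaled by the median of all probes. After 8 h of SEMA3E the median was 0.05 against 0.12 over all genes. Above control lay 59 of 90, near the share of all genes, 63.4%, and 30 of 90 lay above the median of all genes. That place depended on the processing too. Relative to all genes the 8 h median was -0.07, and it was -0.47 with no filter on background. With quantile normalization it was 0.09, and 62 of 90 lay above the median of all genes. At that unadjusted p 3 members were higher and 0 lower, against 5.38% and 0.753% of all genes. From SEMA3E 2 h to 8 h the median was -0.31 against 0.09. Of the 90, 70 lay lower and 20 higher, while 56.4% of all genes lay higher. At that p 7 members were lower and 1 higher, against 3.36% and 8.26% of all genes. With cytochalasin D the median was -0.13 against control, where all genes had 0.03. Of the 90, 71 lay lower and 19 higher, while 53.4% of all genes lay higher. At that p 2 members were lower and 0 higher, against 1.72% and 0.725%. Against SEMA3E at 8 h the cytochalasin D median was -0.17 against -0.13 over all genes, with 6 members lower and 0 higher, against 8.74% and 2.25%. Relative to all genes that median was -0.04, and it was -0.31 with quantile normalization, -0.27 with normexp and 0.10 with no filter on background. From 2 h to 8 h the median relative to all genes was -0.39, and it was -0.05 with quantile normalization and -0.02 with normexp. The comparisons with control share the control arrays and those with SEMA3E 8 h share that group, so their values are not separate evidence.

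The control replicates did not agree on these genes. On control replicate 2, 79 of 90 lay lower than on replicate 1, by a median of -0.47, whereas 45.3% of all genes did, with a median of 0.07. The gap was seen in each complex, with medians of -0.48, -0.36, -0.65, -0.54 and -0.37 for complexes I to V. In the other 3 groups the median gap between replicates over all members was 0.12 or less in size. Single complexes had wider gaps, such as 0.35 for complex III at SEMA3E 2 h and -0.30 for complex V with cytochalasin D. Relative to each gene's own mean, the members' median was 0.19 and -0.32 on the control arrays, 0.30 and 0.39 at SEMA3E 2 h, 0.01 and -0.03 at SEMA3E 8 h, and -0.17 and -0.23 with cytochalasin D. Control replicate 2 had the lowest of the 8 medians, and control replicate 1 lay between the SEMA3E 8 h and SEMA3E 2 h arrays. Without control replicate 2 the 2 h median was 0.17, against 0.10 over all genes, and without control replicate 1 it was 0.66, against -0.0085. The 8 h SEMA3E median became -0.19 and 0.28, and the cytochalasin D median -0.35 and 0.09, so the signs of both depended on which control array was kept. The difference between SEMA3E at 8 h and 2 h uses no control array in its mean and was between -0.37 and -0.27 whichever array was left out. The counts of members at the unadjusted p also depended on which array was left out.

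**Figure D2:**
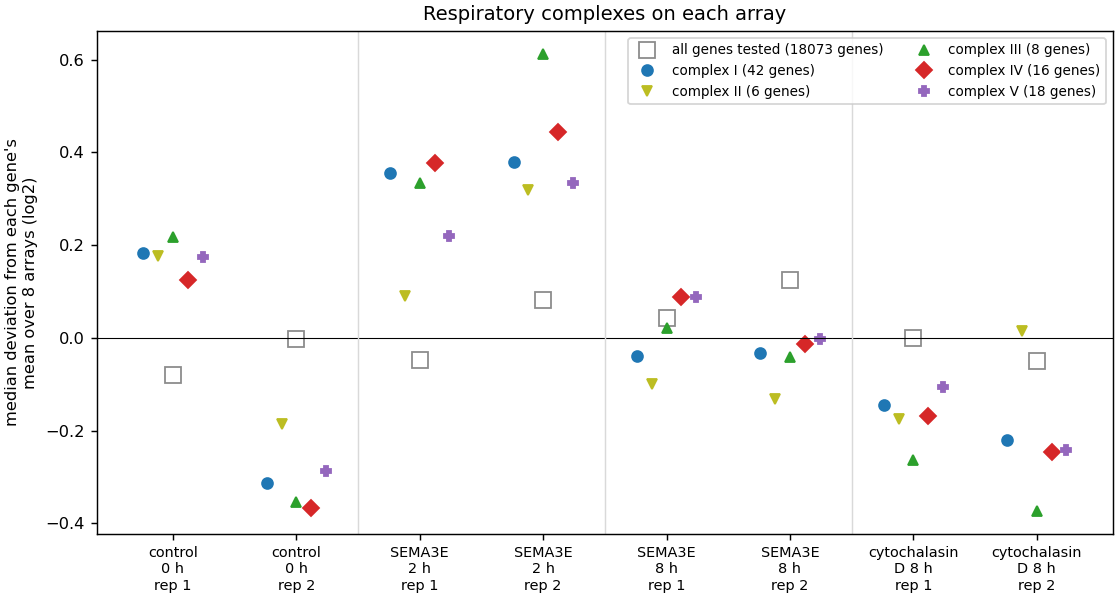
Median deviation of the tested genes placed in each complex from each gene's mean over 8 arrays (log2), by array. Assembly factors and genes that share only the name are included, and open squares are all 18073 tested genes. Complexes I, III, IV and V are highest on both SEMA3E 2 h arrays; complex II is lower on SEMA3E 2 h replicate 1 (0.09) than on control replicate 1 (0.18), and all 5 are lower on control replicate 2 than on replicate 1.

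Complex I oxidises NADH. Its 7 nuclear core subunits, which carry the flavin, the iron-sulfur clusters and the quinone site, had a median of 0.18 at SEMA3E 2 h against control, and its 28 tested accessory subunits, which surround and stabilise the core, had 0.49. The difference between these classes was not tested. Among the core subunits, Ndufs7, next to the quinone site, read 2.28 and 1.74 in control, 2.56 and 2.55 at SEMA3E 2 h, 2.21 and 2.41 at 8 h, and 2.13 and 1.72 with cytochalasin D. Its 2 h difference was 0.55 ± 0.30 (SE; adjusted p = 0.553, limma), and both 2 h arrays lay above both controls. Ndufs3 differed by 0.45 ± 0.28, also with no overlap. Ndufs1, the largest core subunit, differed by -0.24 ± 0.32 at 2 h, with 2.31 and 1.58 on its SEMA3E 2 h arrays. Ndufv1, which binds NADH and flavin, differed by 0.18 ± 0.29, Ndufv2 by 0.21 ± 0.28 and Ndufs8 by 0.04 ± 0.31.

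The accessory subunits of complex I held the larger values. Ndufa3, a small membrane-arm subunit, read 2.61 and 2.27 in control, 3.19 and 3.22 at SEMA3E 2 h, 2.59 and 2.71 at 8 h, and 2.50 and 2.52 with cytochalasin D. Its 2 h difference was 0.76 ± 0.25 (adjusted p = 0.507, limma), with the 2 h arrays above all 6 others. The same shape, a 2 h pair above every other array, was seen in Ndufs5 (1.83 and 1.26 in control, 2.18 and 2.26 at 2 h, 1.55 and 1.36 at 8 h, 1.30 and 1.53 with cytochalasin D). It was also seen in Ndufa13, which read 4.05 and 3.66, then 4.42 and 4.43, then 3.77 and 3.77, then 3.75 and 3.89. From 2 h to 8 h Ndufs5 differed by -0.76 ± 0.29 and Ndufa13 by -0.66 ± 0.25, with adjusted p of 0.411 and 0.416 (limma). Ndufa9, which holds the junction of the peripheral and membrane arms, differed by 0.28 ± 0.24 at 2 h and by -0.24 ± 0.24 at 8 h, and Ndufb8, often used as a marker of assembled complex I, by 0.50 ± 0.28 and 0.16 ± 0.28. At SEMA3E 8 h against control the lowest value of any tested member was that of Ndufa8, -0.30 ± 0.31, with overlapping arrays.

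Ndufa11, a membrane-arm subunit, had the widest spread in complex I, 3.32 over the 8 arrays against a median of 0.98 for tested members. It read -1.84 and -3.62 in control, -1.25 and -0.70 at SEMA3E 2 h, -2.17 and -2.25 at 8 h, and -3.56 and -4.02 with cytochalasin D. The 2 h arrays lay above both controls, by 1.75 ± 0.55 or 3.37-fold (adjusted p = 0.4995, limma), and this value was 0.87 without control replicate 2 and 2.64 without control replicate 1. The cytochalasin D arrays lay below both SEMA3E 8 h arrays by 1.58 ± 0.55 (adjusted p = 0.437). Control replicate 2 sat between the 2 cytochalasin D arrays.

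The 7 complex I assembly factors, which build the enzyme but leave it, had a median of 0.02 at 2 h, below that of the subunits. Ndufaf5, which modifies Ndufs7 during assembly, had the largest difference of the 10 assembly factors that the name rule holds. It read -3.51 and -3.47 in control, -2.59 and -2.38 at SEMA3E 2 h, -2.20 and -2.73 at SEMA3E 8 h, and -3.59 and -3.01 with cytochalasin D. All 4 SEMA3E arrays lay above both controls and both cytochalasin D arrays, at both times: 1.01 ± 0.31 at 2 h and 1.03 ± 0.31 at 8 h, about 2.01-fold and 2.04-fold (adjusted p = 0.496 and 0.706, limma). The cytochalasin D arrays lay 0.83 ± 0.31 below SEMA3E at 8 h (adjusted p = 0.446), and control and cytochalasin D differed by 0.19 ± 0.31. Its control arrays lay close together, unlike those of most members.

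Complex II, succinate dehydrogenase, joins the citric acid cycle to the chain. Sdha, its flavoprotein, read 1.60 and 1.51 in control, 1.24 and 1.35 at SEMA3E 2 h, 1.36 and 1.23 at 8 h, and 1.45 and 1.87 with cytochalasin D. Both SEMA3E groups lay below control with no overlap, by -0.25 ± 0.26 at 2 h and -0.26 ± 0.26 at 8 h, each about the size of its SE. The 3 other subunits lay above control at 2 h: Sdhb, the iron-sulfur subunit, by 0.41 ± 0.27, and the membrane anchors Sdhc and Sdhd by 0.42 ± 0.28 and 0.37 ± 0.26. Sdhc has 1 of its spots in a high block of the marked array, and without it the value was 0.16. The assembly factor Sdhaf1 differed by 0.57 ± 0.33 at SEMA3E 8 h, and Sdhaf2, which adds flavin to Sdha, by -0.25 ± 0.29.

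Complex III passes electrons from ubiquinol to cytochrome c. Of its 8 genes 7 lay above control at SEMA3E 2 h, with a median of 0.45, beside 54.9% of all genes. With cytochalasin D 0 of 8 lay above control (median -0.26), beside 53.4% of all genes. Above SEMA3E at 8 h lay 0 of 8 (median -0.32), beside 39.7% of all genes, and 2 of the 8 lay above the median of all genes. Uqcrfs1, the Rieske iron-sulfur protein, read 1.57 and 0.74, 1.40 and 1.77, 1.14 and 0.95, and 0.65 and 0.65 in control, SEMA3E 2 h, SEMA3E 8 h and cytochalasin D. Its control arrays spanned the whole range of the SEMA3E 8 h arrays. Uqcrq, a small ubiquinone-binding subunit, read 2.27 and 1.53, 2.48 and 2.87, 2.25 and 2.09, and 1.63 and 1.48, with a 2 h difference of 0.78 ± 0.32 (adjusted p = 0.518, limma). The core proteins Uqcrc1 and Uqcrc2 differed by 0.29 ± 0.30 and 0.46 ± 0.26. Uqcrb differed by -0.02 ± 0.54, with 3.05 on SEMA3E 2 h replicate 1 and 1.25 on the marked replicate 2. Without the spots in the patch, Uqcrb rests on another probe, which gave 1.06.

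Complex IV, cytochrome c oxidase, reduces oxygen. Its 11 widely expressed subunits had a median of 0.53 at SEMA3E 2 h. Cox4i1, the common form of subunit 4, read 3.81 and 3.95 in control, 4.31 and 4.51 at SEMA3E 2 h, 3.95 and 4.07 at 8 h, and 4.31 and 3.94 with cytochalasin D. It differed by 0.53 ± 0.26 at 2 h, and control replicate 2 was the higher of its control arrays, unlike in most members. Cox5a differed by 0.48 ± 0.26, Cox5b by 0.29 ± 0.34, Cox6c by 0.65 ± 0.30 and Cox7a2 by 0.93 ± 0.35. Cox6a1 had higher values than SEMA3E 8 h with cytochalasin D, by 0.41 ± 0.28, through replicate 2 for the most part (5.18 and 5.71 against 5.04 and 5.04). Cox7c and Cox8a lay below control at 2 h, at -0.53 ± 0.80 and -0.28 ± 0.56, and both have their only spot for the chosen probe in the patch. Cox7c read 2.21 on replicate 1 and -0.59 on replicate 2, Cox8a 4.39 and 2.52. Without the patch, Cox7c rests on another probe at 0.47, and Cox8a could not be tested. With all spots kept in, the other tested probe of Cox8a gave 0.16 at SEMA3E 2 h against control.

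Cox6b1, which helps to join the 2 monomers of complex IV, had the widest range of any tested member's chosen probe, 3.38. It read -1.98 and -3.72 in control, -2.03 and -1.84 at SEMA3E 2 h, -1.93 and -2.01 at SEMA3E 8 h, and -3.65 and -5.22 with cytochalasin D. Control replicate 1 and the 4 SEMA3E arrays lay close together, and control replicate 2 stood with the cytochalasin D arrays. Cytochalasin D was 2.47 ± 0.66 below SEMA3E at 8 h, or 5.53-fold (adjusted p = 0.413, limma), with no overlap; leaving out an array gave values from -3.26 to -1.67. Against control the difference was -1.59 ± 0.66, and control replicate 2 lay just below cytochalasin D replicate 1. Cox6b1 and Ndufa11 are each measured by 1 tested probe.

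Cox4i2, the lung and hypoxia form of subunit 4, was above background on 6 of 8 arrays, and Cox6a2, the heart and muscle form of subunit 6a, on both arrays of each group except SEMA3E 2 h, where it was on 0 of 2. Cox6a2 read -7.84 and -7.44 in control, -8.15 and -7.05 at SEMA3E 2 h, -5.49 and -6.68 at 8 h, and -7.35 and -7.44 with cytochalasin D. Its SEMA3E 8 h arrays lay above the other 6, by 1.55 ± 0.49 over control (adjusted p = 0.710, limma) and 1.30 ± 0.49 over cytochalasin D (adjusted p = 0.446), but they were 1.19 apart. Against SEMA3E 2 h, where it was not above background, its 8 h mean read 2.85-fold higher, by 1.51 ± 0.49. That is a difference of readings and not a lower bound, and its sign turned with normexp background correction (log2 difference -0.25). Cox7a1, the muscle form of subunit 7a, was above background on all 8 arrays, at -5.07 and -5.51 in control, -4.77 and -4.49 at SEMA3E 2 h, -4.77 and -4.58 at 8 h, and -4.71 and -4.71 with cytochalasin D, so both controls lay below all 6 treated arrays. Cox4i2 also had both controls below all treated arrays, with differences of 0.78 ± 0.31, 0.75 ± 0.31 and 0.61 ± 0.31 at SEMA3E 2 h, SEMA3E 8 h and cytochalasin D; its only spot lies in the patch, so the 2 h value rests on it, and under 2 other scalings its SEMA3E 8 h value lay below control. Cox6b2, the testis form of subunit 6b, differed by 0.82 ± 0.31 at 2 h and by -0.83 ± 0.31 from 2 h to 8 h (adjusted p = 0.518 and 0.411, limma).

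Complex V makes ATP. The 5 catalytic-head (F1) subunits had a median of 0.35 at SEMA3E 2 h and the 10 membrane and stalk subunits 0.50. Of the latter all 10 lay above control, beside 54.9% of all genes. Atp5b, the catalytic beta subunit, read 3.39 and 3.01 in control, 2.95 and 2.98 at SEMA3E 2 h, 3.41 and 3.34 at 8 h, and 3.38 and 3.42 with cytochalasin D. Its SEMA3E 2 h arrays were the lowest pair, by -0.23 ± 0.25 against control and with 0.41 ± 0.25 from 2 h to 8 h, the opposite of most members. Atp5a1, the alpha subunit, differed by -0.29 ± 0.34 at 2 h, and without its spot in the patch by 0.02. The gamma subunit Atp5c1 differed by 0.35 ± 0.24 and the delta subunit Atp5d by 0.50 ± 0.38. Atp5d read -0.04 and -0.06 in control, 0.37 and 0.54 at SEMA3E 2 h, 0.54 and 0.59 at 8 h, and 0.36 and -0.81 with cytochalasin D, so the last group rested on replicates 1.17 apart. Atp5o, which links the stalk to the head, differed by 0.14 ± 0.28, and Atp5e by 0.37 ± 0.28, with its spot in a high block and no value without it. The 3 genes for the ring subunit c, Atp5g1, Atp5g2 and Atp5g3, encode the same mature protein and differed by 0.45 ± 0.36, 0.78 ± 0.33 and 0.54 ± 0.28. The value of Atp5g2 rests on a spot in a high block of the marked array and has no counterpart without it.

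Among the genes that only share the Atp5 prefix, Atp5s, listed by RefSeq as Dmac2l, had the largest cytochalasin D difference after Cox6b1. It read -5.24 and -6.37 in control, -5.78 and -4.88 at SEMA3E 2 h, -4.92 and -5.18 at 8 h, and -6.58 and -7.59 with cytochalasin D. Cytochalasin D was 2.04 ± 0.52 below SEMA3E at 8 h, or 4.10-fold (adjusted p = 0.413, limma), and 1.28 ± 0.52 below control. Both cytochalasin D arrays lay below the other 6, with control replicate 2 nearest. Leaving out an array gave -2.54 to -1.53 for the first value and -1.84 to -0.71 for the second. Atp5s had the lowest readings of the genes placed in complex V, where 17 of 18 were above background on all 8 arrays. Its cytochalasin D readings may thus lie at or near background, and the 4.10-fold value is a difference of readings. The pseudogene Atp5c1-ps is a copy of Atp5c1 by name, and its value of 0.48 ± 0.28 from 2 h to 8 h is uncertain, since binding of Atp5c1 RNA to its probe was not tested.

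**Figure D3:**
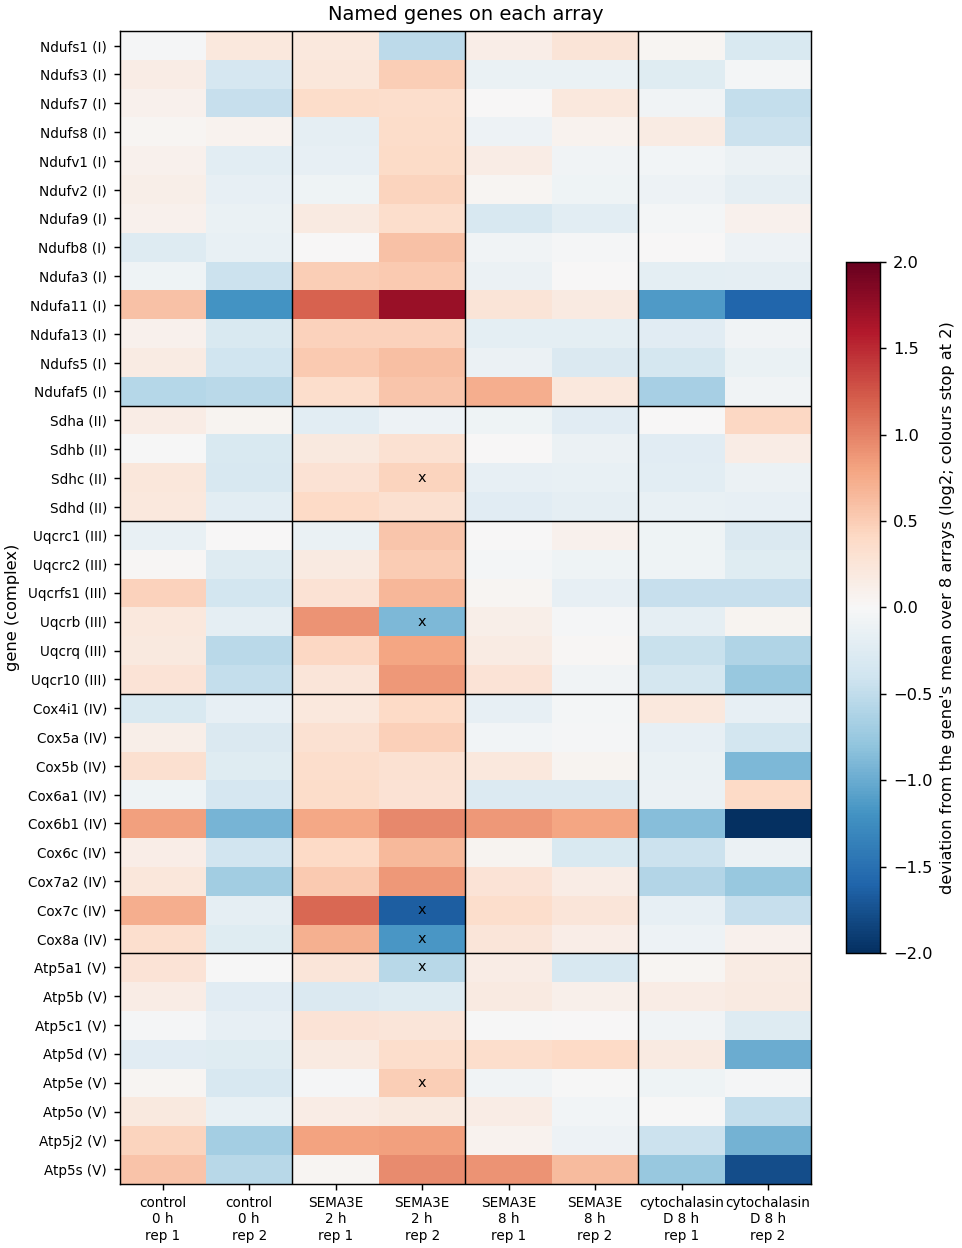
Deviation of each named gene from its own mean over 8 arrays (colour, log2; colours stop at 2 either way) for named genes in rows, by complex, and the 8 arrays in columns; an x marks a gene whose probe has a spot in the outlying blocks of that array. Ndufa11, Cox6b1 and Atp5s are low on both cytochalasin D arrays and on control replicate 2, and Cox7c and Cox8a are lowest in the patch.

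**Figure D4:**
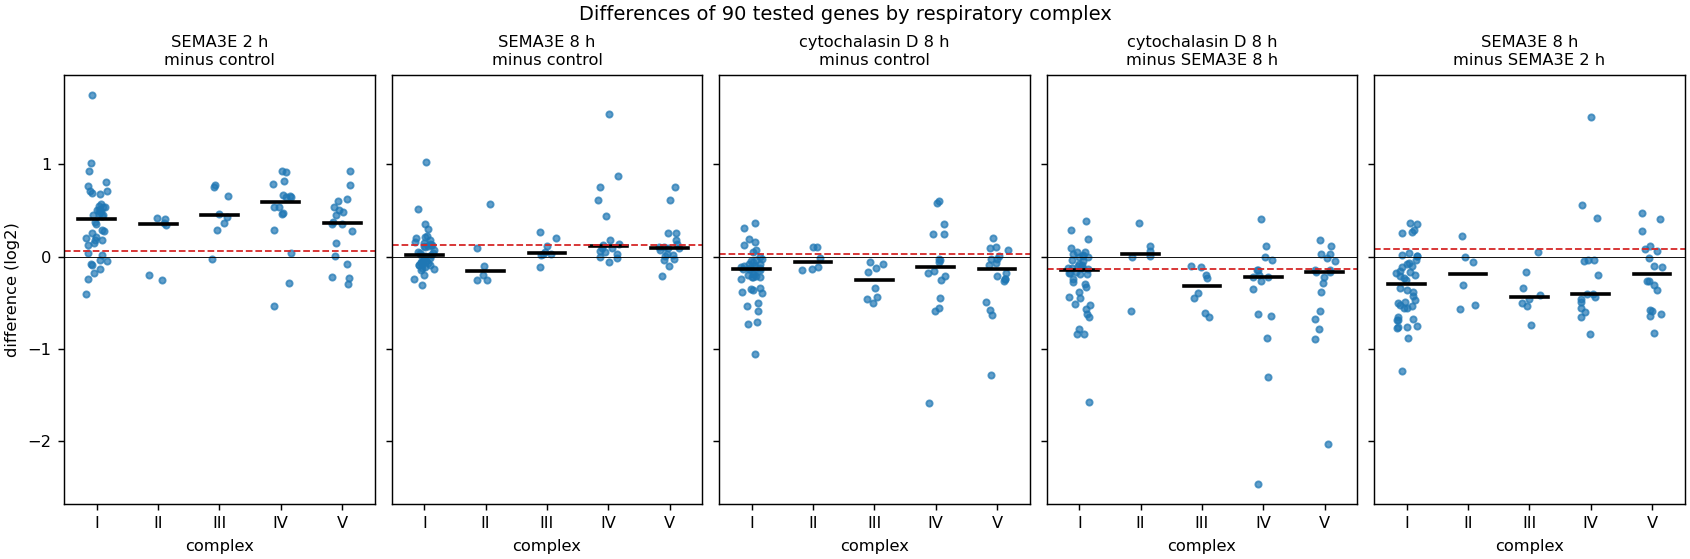
Difference in log2 for each of the 90 tested genes (points), by the complex in which it was placed, in the 5 comparisons. Assembly factors and genes that share only the name are included. Black bars are the complex medians and the dashed red line is the median of all 18073 tested genes. At SEMA3E 2 h the medians of all 5 complexes lie above the dashed line, and in the other comparisons with control they lie close to it or below.

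Probes of 1 gene did not always agree. Of the 28 genes with several tested probes, 8 had probes whose differences lay over 1 apart in at least 1 comparison (among them Atp5g1, Cox7a2l, Cox7c, Ndufa5, Ndufv3, Uqcr10 and Uqcrb), 18 of 140 gene and comparison pairs. For 4 of these genes a probe lies in the dark patch. Uqcr10, a small subunit of complex III, is a case outside it. A pair of its probes shares 53 of their 60 bases, and a further probe shares no more than 6 in a row with either. The sequences are printed because they show which probes measure the same stretch of the transcript; the capitals mark the poly(A) signal AATAAA.
Uqcr10, last 30 bases shared by probes 55_P2157705 and 55_P2166414: ctgtcagcaAATAAAtgcaaagtgctcatg
Uqcr10, first 30 bases of probe 55_P2136765: acatgtcgttgccgacgatcccttcgcgtc

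The 2 overlapping probes, which hold a poly(A) signal, read 1.62 and 0.83, and 1.94 and 1.18, on the control arrays, and 0.95 and 0.72, and 1.32 and 0.90, with cytochalasin D. Probe 55_P2136765 read 0.95 and -1.44 in control, 1.60 and 1.67 at SEMA3E 2 h, 0.53 and 0.17 at 8 h, and -1.59 and -2.66 with cytochalasin D. All 3 probes order the groups alike, but the range over the arrays was 0.96 and 1.62 for the overlapping pair and 4.34 for the other. Its cytochalasin D difference from SEMA3E at 8 h was -2.47, against -0.59 and -0.65. The wider-ranging probe, like those of Cox6b1 and Ndufa11, was high on control replicate 1 and low on control replicate 2. The position of the probes in the transcript was not analysed here, and its part in these values was not tested. Over all 60 bases, this probe and those of Cox6b1 and Ndufa11, of which the first 30 bases are shown, hold no AATAAA or ATTAAA.
Cox6b1, first 30 bases of probe 51_P448032: aggagtcaggatggctgaagacatcaagac
Ndufa11, first 30 bases of probe 51_P279854: ggccgagcaagcccagctaggtatggcgat

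In Cox7a2l, which helps to join complexes III and IV into supercomplexes, 2 probes share 41 bases, the last 30 of which are shown because the pair differs on a single array.
Cox7a2l, last 30 bases shared by probes 55_P2151071 and 66_P129419: gctgtggctttacgttatgattgaccggac
They read 3.16 and 3.39 on SEMA3E 2 h replicate 1 but 3.53 and 1.23 on replicate 2, where the spot of 66_P129419 lies in the dark patch, and they lay close to each other on the other 7 arrays. In Ndufa5, the probe outside the patch gave 0.84 at SEMA3E 2 h and -1.62 for cytochalasin D against SEMA3E 8 h, and the brighter one, in the patch, gave -0.18 and -0.17.

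**Figure D5:**
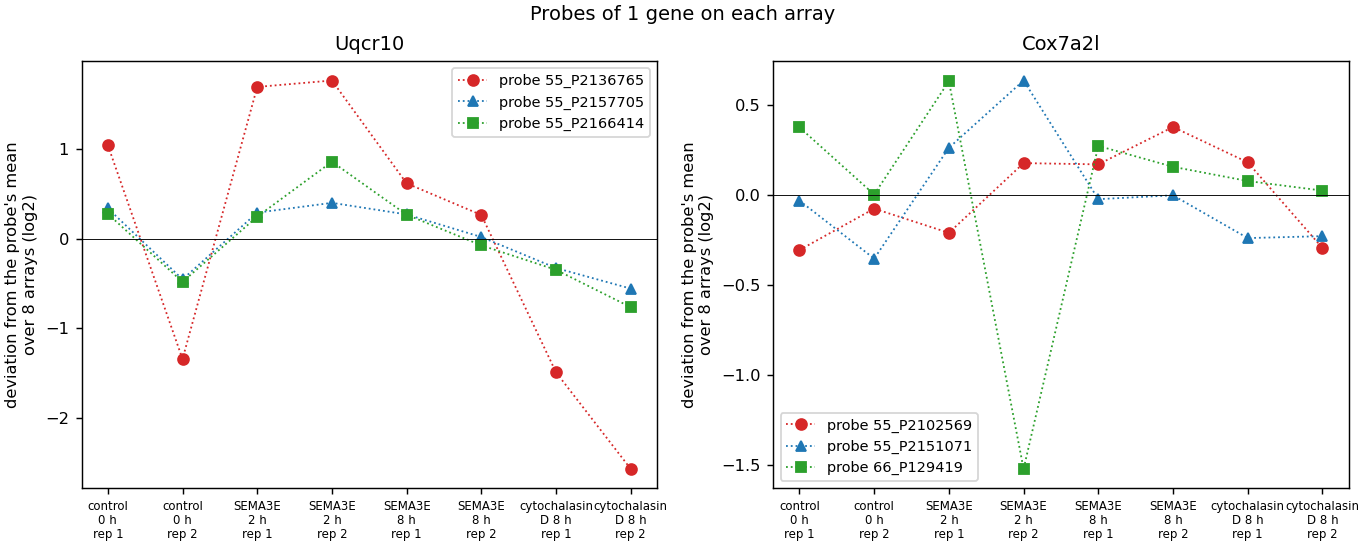
Deviation of each probe from its own mean over 8 arrays (log2) for the 3 probes of Uqcr10 and of Cox7a2l, by array; dotted lines only join the points of a probe. Probe 55_P2136765 of Uqcr10 spans 4.34, and 66_P129419 of Cox7a2l drops on SEMA3E 2 h replicate 2 alone.

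Most members were bright: 74 of 90 lay above the upper quartile of mean level of tested genes. The 4444 other genes there had a median of 0.14 at SEMA3E 2 h, -0.0018 at SEMA3E 8 h, 0.09 with cytochalasin D, -0.17 from 2 h to 8 h and 0.09 for cytochalasin D against SEMA3E 8 h. The 74 members had 0.44, 0.05, -0.15, -0.39 and -0.18 in that order. Probe GC content did not set them apart, with a median of 43.3% in both the 129 tested member probes and all 24667. A poly(A) signal, AATAAA or ATTAAA, stood in 38.0% of member probes and 16.4% of all tested probes. Between the control replicates, member probes with a signal had a median of -0.60 and those without -0.44, and over all tested probes the values were -0.14 and 0.15.

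The genes that work with these subunits were taken from 6 lists, chosen with earlier results of these data known, and none of their genes was called in any comparison. For the 13 tested subunits encoded by mitochondrial DNA the median was 0.43 at SEMA3E 2 h and 0.15 at SEMA3E 8 h. At 2 h 11 of 13 lay above control, beside 54.9% of all genes. Their median was -0.46 with cytochalasin D, and -0.69 for cytochalasin D against SEMA3E at 8 h. With cytochalasin D 12 of 13 lay below control and 1 above, while 53.4% of all genes lay above. ATP8, a subunit of the proton channel, read 0.80 and -2.04 in control, 0.62 and 0.55 at SEMA3E 2 h, -0.04 and -0.98 at 8 h, and -2.68 and -1.83 with cytochalasin D. CYTB, the cytochrome b of complex III, read 3.04 and 2.86, 2.73 and 3.17, 3.39 and 2.96, and 2.11 and 1.78, so both cytochalasin D arrays lay below the other 6. Among the 29 assembly factors outside the name rule the 2 h median was 0.20, among the 21 mitochondrial carriers and import genes also 0.20, and among the 13 electron carriers and further subunits 0.25. The 18 citric acid cycle genes had a median of 0.03 and the 19 regulators of respiratory genes 0.05, near the 0.06 of all genes. Nrf1, a transcription factor of respiratory genes, read -0.40 and 0.62 in control, -0.09 and 0.07, 0.25 and 0.48, and 0.88 and 1.03 with cytochalasin D, highest in that group and with its control arrays far apart.

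The start regions of the 75 that matched the RefSeq table (GRCm38.p6) were searched, from 250 bases before to 50 after the start, on both strands, for 3 motifs of respiratory gene promoters. The NRF1 motif (GCGCA, any base, then GCGC) stood in 25.3% of members and 5.19% of 27025 genes, the ETS motif CCGGAAG, which GABP binds, in 25.3% and 9.93%, and the YY1 motif AAGATGGC in 12% and 3.19%. The ETS motif ends and the YY1 motif begins with AAG, and a match is a description of letters, not a binding site. At SEMA3E 2 h the members with an NRF1 motif had a median of 0.50 (19 tested) and those without 0.45 (53 tested). For the ETS motif the medians were 0.37 (18) and 0.47 (54). Stretches of 150 bases before the start are shown for the 2 widest genes and for Sdha, which did not follow the set; the capitals mark the motifs, on either strand.
Ndufa11, chr17:56717612-56717761, plus strand: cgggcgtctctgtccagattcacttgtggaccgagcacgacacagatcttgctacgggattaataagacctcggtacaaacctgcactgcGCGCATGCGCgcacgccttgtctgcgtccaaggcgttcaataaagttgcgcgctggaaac
Cox6b1, chr7:30626115-30626264, minus strand: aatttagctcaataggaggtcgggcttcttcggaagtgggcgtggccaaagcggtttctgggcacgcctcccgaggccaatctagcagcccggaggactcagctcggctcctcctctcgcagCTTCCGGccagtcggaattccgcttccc
Sdha, chr13:74350241-74350390, minus strand: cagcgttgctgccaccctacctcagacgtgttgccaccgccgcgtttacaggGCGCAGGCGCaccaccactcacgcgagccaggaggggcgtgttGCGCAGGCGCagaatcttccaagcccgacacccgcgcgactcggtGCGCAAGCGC
Ndufa11 holds 1 NRF1 motif in its stretch, Cox6b1 1 ETS motif and Sdha 3 NRF1 motifs.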

How the data were processed

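Total RNA of 8 cultures was labelled with Cy3 and hybridised to 1-colour Agilent arrays, all on 1 slide. Per the file headers, the scanner signal is an intensity on a linear scale from Agilent Feature Extraction 11.5.1.1, background-subtracted and not scaled between arrays, on a design annotated to mm9. The authors also deposited a table of intensity per gene name, of which 99.9% of 20738 single-spot values lay within 1% of the scanner signal; it was an alternative. Intensities, which the authors deposited without a log, were turned into log2 values. Spots marked as outliers were dropped, spots of a probe averaged, and each array was scaled by the 75th percentile of 18687 probes above background on all arrays. A probe was tested when complete and above background on both arrays of at least 1 group, and the brightest probe stood for its gene. Group means were fitted over all 8 arrays with limma 3.58.1 (R 4.3.3), two-sided, with 4 residual and 3.40 prior degrees of freedom, Benjamini-Hochberg adjusted over 18073 genes. The fit was tested on simulated data. Sequences came from the probe column and from RefSeq. Tables and figures used Python 3.11.15, pandas 2.3.3, numpy 2.4.6 and matplotlib 3.10.9.

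With 2 arrays a group, the number of arrays limits the precision. Each p-value sets a difference against the spread between these replicate arrays, pooled over all 4 groups and moderated over the tested genes. The members, the 6 related lists and the named genes were chosen with earlier results of these data known. Named were core and landmark subunits, isoform pairs, the 3 genes with the smallest p in each direction of each comparison, and genes whose probes disagreed. The same replicate numbers in different groups did not deviate together: the 6 correlations over all genes ran from -0.15 to 0.14. The values of 1 further gene that this rule names are not reported here.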

Additional observations from a re-analysis of the deposited data

How the results depend on the processing

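The shift of the set depends on the scaling. Scaling by the median of all probes moved the median of all tested genes by -0.59 at SEMA3E 2 h, and the members' median became -0.16 at SEMA3E 2 h, -1.11 at SEMA3E 8 h, 0.81 for cytochalasin D against SEMA3E 8 h and -0.88 from 2 h to 8 h; relative to all genes the members' 2 h median stayed 0.38, since such a scaling adds the same amount to every gene. The 75th percentile over all probes gave -0.17 at SEMA3E 8 h against control, 0.080 for cytochalasin D against SEMA3E 8 h and -0.57 from 2 h to 8 h. Quantile normalization gave 0.20 at SEMA3E 2 h and -0.12 from 2 h to 8 h, and normexp with quantile normalization gave 0.21 at 2 h. With normexp alone the 2 h median was 0.42 but that of all genes was 0.39, and 7 members were called higher, against 18.8% of all genes. They were Cox4i2, Cox6a2, Cox6b2, Cox7a1, Ndufa11, Ndufa3 and Ndufaf5, each at adjusted p = 0.0486 by limma. Of these, Cox6a2 was above background on neither SEMA3E 2 h array, and the only spot of Cox4i2 lies in the dark patch. The cause of these calls was not tested. Relative to all genes, the members' 2 h median ran from -0.03 with no filter on background to 0.67 without control replicate 1. Their SEMA3E 8 h median against control ran from -0.47 to 0.20 in the same 2 settings.

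Leaving out 1 array gave medians from 0.17 to 0.66 at SEMA3E 2 h and -0.19 to 0.28 at SEMA3E 8 h. For cytochalasin D they ran from -0.35 to 0.091 against control and from -0.23 to -0.15 against SEMA3E 8 h. From 2 h to 8 h they ran from -0.37 to -0.27. Without SEMA3E 8 h replicate 1, Cox8c also entered the fit, since the 1 array on which it was above background then stands for its group. There its SEMA3E 8 h reading lay 3.27 above control. With both arrays no lower bound on its fold over control can be given. It was not above background on SEMA3E 8 h replicate 1. Of 30 named gene and comparison pairs, 6 changed sign in some alternative; Ndufaf5, Atp5c1-ps and Atp5b did so only where scaling by the median of all probes added the same amount to every gene. Atp5a1 at SEMA3E 2 h became 0.020 without the outlying spots, an alternative added after seeing the data, and ran from -0.70 to 0.10 when 1 array was left out. At SEMA3E 8 h against control Ndufaf5 became -0.14 and Cox4i2 -0.41 with the median of all probes, and Cox4i2 -0.33 with quantile normalization. From 2 h to 8 h Atp5c1-ps became -0.092 and Atp5b -0.16 with the median of all probes, and Cox6a2 -0.25 with normexp. The replicate block left the medians at 0.44, 0.05, -0.13, -0.17 and -0.31 and called 0 members; the numbers share only a label. Assembly factors and name-only genes left out, the medians were 0.45, 0.05, -0.15, -0.18 and -0.37.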
